A study of Homo sapiens with 18 samples.

Results

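The genes described here are 9 markers used to sort small cell lung cancer (SCLC) into molecular subtypes: NEUROD1, POU2F3 and INSM1, which encode transcription factors, CHGA, SYP and NCAM1, which encode neuroendocrine marker proteins, and the MYC family genes MYC, MYCL and MYCN. They were taken by symbol and Entrez number from a table of 18475 genes in 18 libraries, and 7 of the 9 were measured. NEUROD1 and INSM1 are not analysed here. RNA-seq had been performed on 3 human lung cell lines, each with 3 control libraries and 3 libraries made 24 h after 10 Gy of X-ray radiation. BEAS-2B is an immortalized line of normal bronchial epithelium that carries viral transforming genes, A549 is a lung adenocarcinoma line, and H446 is labelled as a small cell lung cancer line. All are labelled wild type, and the controls were not irradiated. Each line stands for a single donor, and the labels do not say that the 3 libraries of a group came from separate cultures. The paper describes its experiments in general as repeated, without tying this to the cultures behind each library, so that the spread between libraries may be technical.

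Neuroendocrine cells of the airway store peptide hormones in dense-core granules, and most SCLC keep this program under the transcription factors such as NEUROD1 and INSM1. A minority of SCLC lack it and depend on POU2F3, the master regulator of tuft cells, or show YAP1 and other genes of non-neuroendocrine cells, while Notch signalling and the repressor REST hold neuroendocrine genes down. MYC, MYCL and MYCN are related transcription factors that pair with MAX, bind E-box sequences and raise genes of ribosome production, nucleotide synthesis and the cell cycle, and SCLC often amplifies a member of the family.

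On GRCh38.p14, RefSeq places MYCL at chr1:39895428-39901917, MYCN at chr2:15940550-15947004, NCAM1 at chr11:112961420-113278436, POU2F3 at chr11:120236638-120319945, CHGA at chr14:92922664-92935285 and SYP at chrX:49187815-49200193. Upstream sequence is shown for 3 members that were highest in a line other than H446, namely CHGA and SYP, highest in A549 cells, and MYCL, highest in BEAS-2B cells. Each is the part free of GENCODE 29 exons within the 250 bases before the transcript start used in the RefSeq promoter table, printed 5′ to 3′ on the strand of the gene, with capitals for the general E-box CANNTG. The CHGA stretch is chr14:92922900-92923079 on the plus strand, the SYP stretch is chrX:49200260-49200443 on the minus strand, and the MYCL stretch is chr1:39902014-39902140 on the minus strand. For CHGA this transcript start follows base 92923149 and lies inside the RefSeq gene span given above, which begins further upstream.
CHGA: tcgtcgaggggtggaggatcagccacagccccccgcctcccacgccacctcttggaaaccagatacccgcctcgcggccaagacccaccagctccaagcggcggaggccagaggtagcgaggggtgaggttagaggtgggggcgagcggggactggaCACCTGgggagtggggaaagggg
SYP: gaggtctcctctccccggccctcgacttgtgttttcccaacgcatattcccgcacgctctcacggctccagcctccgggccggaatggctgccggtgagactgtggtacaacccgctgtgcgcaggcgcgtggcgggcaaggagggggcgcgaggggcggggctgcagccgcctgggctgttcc
MYCL: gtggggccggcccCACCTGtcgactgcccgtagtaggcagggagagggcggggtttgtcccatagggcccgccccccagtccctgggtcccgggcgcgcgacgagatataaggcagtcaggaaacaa
Both strands were searched by 1 pass, because the 3 motifs used read the same on either strand. The full 250 bases held 1 CANNTG in CHGA, 93 bases before that transcript start, and 1 in MYCL, 210 bases before it, and none in SYP. CANNTG was present in 61.8% of all 35116 upstream windows of this length. The canonical MYC and MAX site CACGTG, which is one form of CANNTG, was in 6.34% of windows and in none of the 3. The cyclic AMP response element TGACGTCA stood 54 bases before the same transcript start of CHGA, inside the first exon of a GENCODE 29 transcript and so outside the printed stretch, and was present in 1.65% of windows. These matches describe the letters alone.

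The deposited values are treated as FPKM, that is, read counts scaled to transcript length and to the size of the library, so that levels can be compared between genes as well as between libraries. Depth in reads is unknown, and the summed FPKM of a library lay between 461255 and 529936. Differences were tested with limma on log2(FPKM + 1), which understates the change of genes near 0, and a gene was called at a Benjamini-Hochberg adjusted p under 0.05 over all genes tested. A filter kept genes that reached an FPKM of 1 in 3 or more of the compared libraries. Members under it were tested in the same fit without the filter, where every library of a compared group was above 0. An exact permutation test of 3 against 3 libraries cannot give a p below 0.10. The library BEAS-2B 10 Gy replicate 2 stood apart, since 27 p53 target genes had a median log2 difference to the BEAS-2B controls of 0.00 there, while replicates 1 and 3 stood at 0.84 and 0.97. In H446 cells the deviation of a library along transcript GC content moved with treatment (Spearman correlation across genes 0.43 to 0.59 in controls and -0.59 to -0.18 after 10 Gy).

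The library labels were first compared with the marker proteins that define neuroendocrine tissue. In H446 cells, the line labelled SCLC, all 3 marker genes were near 0 and lower than in at least one of the other lines. CHGA, which encodes the granule protein chromogranin A, was listed at 0.05, 0.00 and 0.00 FPKM in the H446 controls and at 0.88 to 1.19 FPKM in the A549 controls, and at 0 in all 6 BEAS-2B libraries. The H446 and A549 controls did not overlap. Since CHGA could be tested only through A549, where it was high, its levels between lines are given without a test. SYP, which encodes the synaptic vesicle protein synaptophysin, was at 0.09, 0.29 and 0.19 FPKM in H446 controls, 0.43, 0.47 and 0.38 in BEAS-2B controls and 2.13, 2.01 and 1.83 in A549 controls. The 3 lines did not overlap, with A549 highest and H446 lowest. Its mean level in H446 (0.19 ± 0.10 FPKM, SD, n = 3) was 10.5 times below that in A549 (1.99 ± 0.151) and 2.25 times below that in BEAS-2B (0.427 ± 0.0451). SYP passed the filter only through A549, so that only the difference between H446 and BEAS-2B is tested here (-0.26, SE 0.07, adjusted p = 0.00424, limma). NCAM1, which encodes the cell adhesion molecule CD56, was listed at 0.00 FPKM in 5 of the 6 H446 libraries and at 0.01 in the sixth. The A549 controls were at 0.44, 0.49 and 0.39 FPKM and the BEAS-2B controls at 4.56, 5.48 and 3.93 FPKM, so that the normal bronchial line held the most NCAM1 and no groups overlapped. NCAM1 passed the filter only through BEAS-2B, and the difference between the other two lines was -0.52 (H446 against A549, SE 0.09, adjusted p = 9.11e-05, limma). In bulk RNA, fewer cells with a transcript and less transcript per cell cannot be told apart.

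Of the transcription factors, POU2F3 was the only measured member besides MYC whose level was highest in H446 cells. It was at 0.23, 0.20 and 0.33 FPKM in H446 controls, at 0.00, 0.00 and 0.05 in BEAS-2B and at 0.00, 0.03 and 0.00 in A549 controls. The H446 libraries lay above all others, and for the same reason as for CHGA no test between lines is given. The level itself was low in every group, with 0 of 18 libraries at an FPKM of 1. Among 15 measured genes of the tuft cell program, 2 had an FPKM of at least 1 in all H446 controls and 7 were at 0 in all of them, and their summed level was 4.0 to 4.47 FPKM in H446, 2.83 to 3.44 in BEAS-2B and 9.21 to 10.1 in A549 controls.

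**Figure D1:**
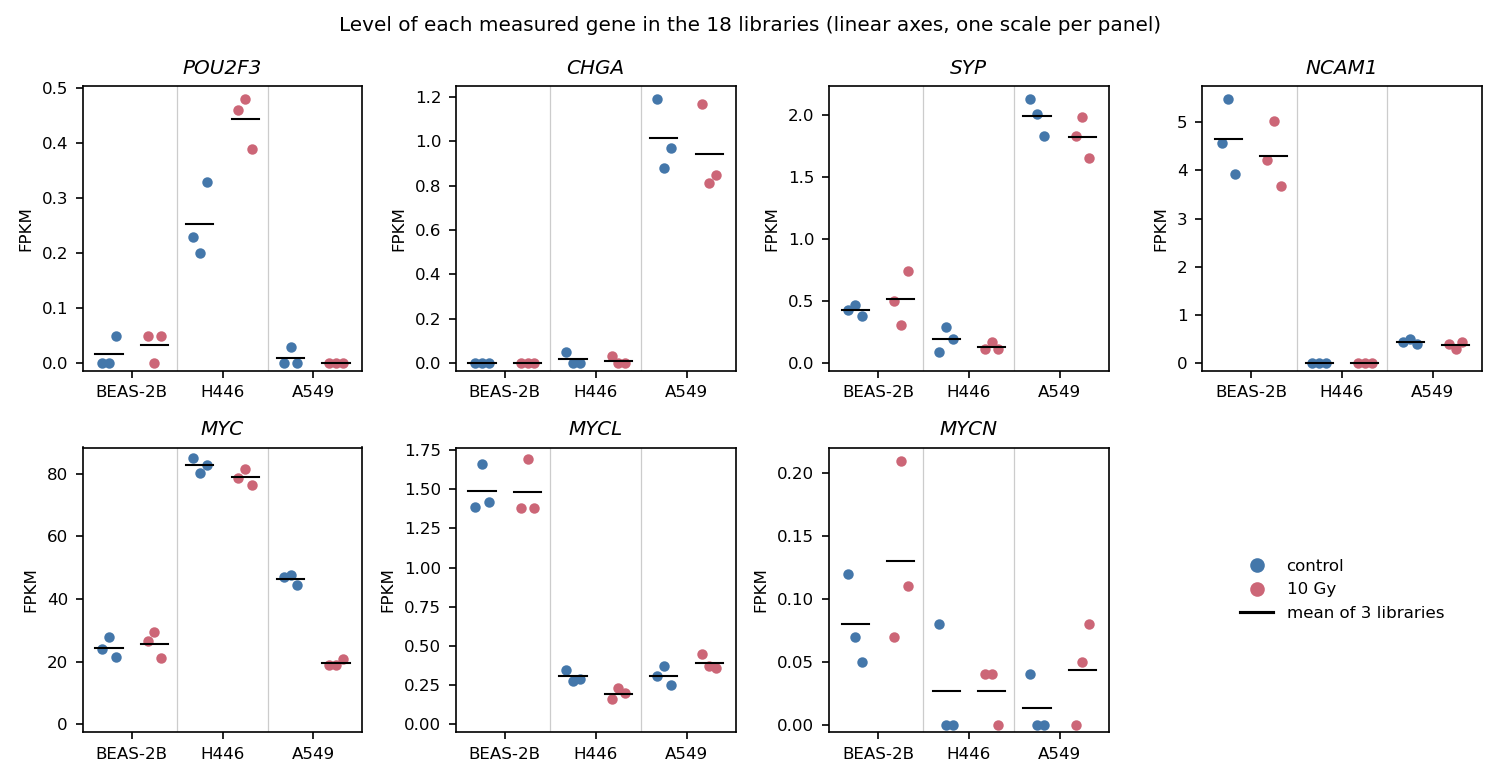
FPKM (linear axis, a scale of its own per panel) of the 7 measured genes in each library, with controls in blue, libraries after 10 Gy in red and the mean of 3 libraries as a line. CHGA and SYP are highest in A549, NCAM1 and MYCL in BEAS-2B, and POU2F3 and MYC in H446 cells, and MYC is the one gene whose A549 libraries separate widely by treatment.

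Across the measured members that passed the filter, 4 of 4 were called between H446 and BEAS-2B controls (1 higher and 3 lower in H446), where 82.6% of all genes tested were called (36.0% higher and 46.7% lower). Between H446 and A549, 3 of 4 were called (1 higher and 2 lower), beside 84.4% of all genes (41.4% higher and 43.1% lower). Between A549 and BEAS-2B, 4 of 4 were called, 2 in each direction, beside 85.1%. Since NCAM1, MYCL and SYP each passed the filter only through the line where it was highest, these counts support no statement about the members. The lines differ in most genes, so the shares of members called stand near the background and the members are described by their levels.

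The wider neuroendocrine program was read from lists of related genes. Of 27 measured secretory and synaptic genes, 20 passed the filter, and H446 was higher in 5 and lower in 13 of them than A549 (90.0% called, beside 84.4% of all genes), with a median difference of -1.17 on the log2 scale against -0.01 over all genes. Against BEAS-2B, H446 was higher in 7 and lower in 9 (80.0% called, beside 82.6%), with a median of -0.08 against -0.09 over all genes. The summed level of the 27 genes was 151 to 155 FPKM in H446 controls, 495 to 525 in BEAS-2B and 739 to 774 in A549 controls, without overlap. A few genes carry these sums. UCHL1, a ubiquitin hydrolase of neurons used as a neuroendocrine marker, had a mean of 22.9 FPKM in H446, 270.0 in BEAS-2B and 514 in A549 controls. ENO2, the neuronal enolase, had 20.7 FPKM in H446, 111 in BEAS-2B and 23.1 in A549 controls. CPLX2, a regulator of vesicle fusion, was listed at 0 in H446 and had 62.7 FPKM in A549 controls, and SNAP25, a membrane fusion protein, had 1.31 against 28.3 FPKM. PCSK1N, an inhibitor of a prohormone convertase, was listed at 0 in H446 and had 10.4 FPKM in BEAS-2B and 7.64 FPKM in A549 controls. SV2A, a synaptic vesicle protein, was high in BEAS-2B alone among the controls (24.1 FPKM, against 0.307 in H446 and 0.10 in A549). Some of the tested genes, CPLX2 and SV2A among them, passed the filter only through the line where they were high, so the counts and medians of this and the other lists between lines are descriptions, and the levels named here are given without a test.

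Neuronal surface and cytoskeleton genes did not follow a single order. Of 14 tested, H446 was higher than A549 in 3 and lower in 10 (92.9% called, beside 84.4% of all genes, with a median of -1.13 against -0.01), and higher than BEAS-2B in 5 and lower in 7 (85.7%, beside 82.6%, with a median of -0.26 against -0.09). The shares called are near the background. L1CAM, an adhesion molecule of axons, had 77.6 FPKM in H446 against 2.89 in A549 controls, and NEFH, the heavy neurofilament chain, had 7.93 FPKM against 0.00667. INA, an intermediate filament protein of neurons, had 12 FPKM in H446 and 15.6 FPKM in A549 controls and was listed at 0 in BEAS-2B, while BEX1 had 0.06 FPKM in H446 and 277 in BEAS-2B controls. Of 23 measured neuroendocrine transcription factors, 4 had an FPKM of at least 1 in all H446 controls, 1 in BEAS-2B and 5 in A549. ONECUT2, a homeobox factor, was higher in H446 (8.03 FPKM) than in A549 (0.41 FPKM) or BEAS-2B (0.117 FPKM), without overlap, and passed the filter only through H446. FOXA2, a factor of foregut endoderm, had 31.0 FPKM in A549 and was listed at 0 in all controls of the other lines.

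**Figure D2:**
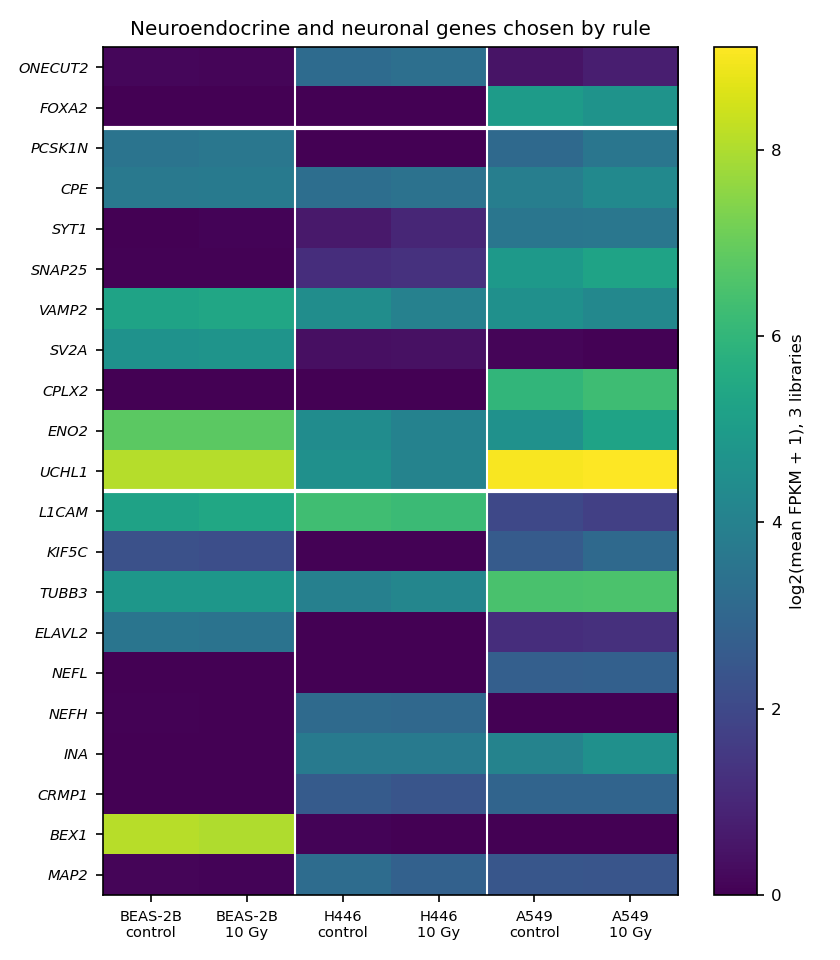
Mean level as log2(mean FPKM + 1) by group (columns) of the neuroendocrine transcription factors, secretory genes and neuronal genes named by rule (rows, in 3 blocks divided by white lines). Dark is low and light is high. The H446 columns are near 0 for CPLX2, PCSK1N and BEX1 and highest of the lines for L1CAM. Control and 10 Gy columns of a line are close on this scale, although UCHL1 went from 22.9 to 15.6 FPKM in H446 and ENO2 from 23.1 to 38.2 FPKM in A549.

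Genes that oppose the neuroendocrine program were expressed in all 3 lines. REST had a mean of 8.55 FPKM in H446, 8.34 in BEAS-2B and 8.17 in A549 controls, and neither difference of H446 passed the threshold (0.03, SE 0.06, adjusted p = 0.589 against BEAS-2B and 0.06, SE 0.06, adjusted p = 0.336 against A549, limma). YAP1, the transcriptional effector of the Hippo pathway, had 46.0 FPKM in H446, 44.4 in BEAS-2B and 41.5 in A549 controls. Its difference of 0.15 between H446 and A549 passed (adjusted p = 0.0275) and that of 0.05 between H446 and BEAS-2B did not (adjusted p = 0.396, limma). Of 15 tested genes of the REST and Notch list, H446 was higher in 10 and lower in 3 than BEAS-2B (86.7% called, beside 82.6% of all genes, median 0.62 against -0.09), and higher in 9 and lower in 4 than A549 (86.7%, beside 84.4%, median 0.53 against -0.01). The shares called are near the background. HES4, a Notch target, had 38.7 FPKM in H446, 19.6 in BEAS-2B and 7.09 in A549 controls, and the ligand JAG2 had 12.3, 3.75 and 2.04 FPKM. The largest difference of the list between H446 and A549 ran the other way, with the ligand JAG1 at 2.07 FPKM in H446 and 29.2 FPKM in A549 controls (-3.30, adjusted p = 1.57e-13, limma). NOTCH2 had 35.1 FPKM in H446 against 24.3 and 16.5, while NOTCH1 did not differ past the threshold from BEAS-2B (3.69 and 3.78 FPKM, adjusted p = 0.799) and HES1 was lower in H446 than in A549 (3.44 and 6.49 FPKM, adjusted p = 3.07e-05, limma).

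The 28 listed genes of non-neuroendocrine cells were expressed in every line, since 28 had an FPKM of at least 1 in all H446 controls, 28 in BEAS-2B and 27 in A549. H446 was higher in 9 and lower in 17 of them than A549 (92.9% called, beside 84.4% of all genes, median -0.31), and higher in 11 and lower in 13 than BEAS-2B (85.7%, beside 82.6%, median -0.03). CD44, a hyaluronan receptor, had 205 FPKM in H446, 51.2 in BEAS-2B and 250 in A549 controls, while PLAU, the urokinase, had 2.88, 24.9 and 101 FPKM. Epithelial markers were also present, since 8 of 14 reached an FPKM of 1 in all H446 controls, against 9 in BEAS-2B and 6 in A549, with KRT7 at 1337 FPKM in H446. Of 9 alveolar markers, 1 reached an FPKM of 1 in all A549 controls (ABCA3, 8.57 FPKM), the same gene in BEAS-2B (4.42 FPKM) and none in H446. Of 11 measured fibroblast and blood cell markers, 4 or 5 reached it in each line, and the summed level was 31.6 to 35.6 FPKM in H446, 38.8 to 46.5 in BEAS-2B and 39.2 to 43.6 in A549 controls. The part of these genes in the low level of CHGA, SYP and NCAM1 was not tested.

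Among the MYC family, MYC held nearly all of the signal in every library. It made up 99.5 to 99.7% of the summed FPKM of MYC, MYCL and MYCN in H446 controls, 99.2 to 99.4% in A549 controls and 93.6 to 94.2% in BEAS-2B controls. MYC itself lies at chr8:127735434-127742951 (RefSeq, GRCh38.p14). It was at 85.0, 80.05 and 82.8 FPKM in the H446 controls, where it ranked between 927 and 993 among all genes. It was at 47.1, 47.7 and 44.6 FPKM in A549 controls and at 23.9, 27.9 and 21.5 FPKM in BEAS-2B controls. The 3 lines did not overlap, and the order was H446, A549 and BEAS-2B. The mean in H446 (82.6 ± 2.47 FPKM, SD, n = 3) was 3.38 times that in BEAS-2B (24.4 ± 3.24) and 1.78 times that in A549 (46.5 ± 1.65), and A549 was 1.90 times BEAS-2B. On the log2(FPKM + 1) scale these differences were 1.72, 0.82 and 0.91 (SE 0.07 each, adjusted p = 2.09e-10, 3.11e-07 and 1.09e-07, limma).

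MYCL, the paralog first found in SCLC, followed another order. It was at 1.39, 1.66 and 1.42 FPKM in BEAS-2B controls, at 0.35, 0.28 and 0.29 FPKM in H446 and at 0.31, 0.37 and 0.25 FPKM in A549 controls. BEAS-2B lay above both cancer lines, 4.86 times above H446 and 4.81 times above A549, given without a test since MYCL passed the filter only through BEAS-2B. H446 and A549 overlapped (difference -0.00, SE 0.06, adjusted p = 0.969), although quantile normalization gave 0.16 (adjusted p = 0.0297) and the irradiated libraries -0.22 (adjusted p = 0.00951). MYCN, the neuronal paralog, was at or below 0.21 FPKM in all libraries and listed at 0 in 6 of the 18. Its BEAS-2B controls (0.05 to 0.12 FPKM) overlapped with those of H446 (0.00 to 0.08), and those of A549 lay at 0.00 to 0.04 FPKM.

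Partners and targets of MYC were compared in the same controls. MAX, the obligate partner, had 19.7 FPKM in H446, 16.4 in BEAS-2B and 21.8 in A549 controls, a range far smaller than that of MYC. MLXIPL, a glucose-sensing factor of the extended network, had 17.2 FPKM in H446 against 0.573 in BEAS-2B and 0.487 in A549, and also passed the filter only through H446. MXD1, a MAX partner that opposes MYC, had 8.84 FPKM in H446 against 2.93 in BEAS-2B and 3.34 in A549. Other partners were lower in H446 than in BEAS-2B, such as MXD3 (11.7 against 33.4 FPKM) and USP28 (7.67 against 15.6 FPKM). Of 19 partners tested, 10 were higher and 6 lower in H446 than in BEAS-2B (84.2% called, beside 82.6% of all genes). The same counts held against A549 (84.2%, beside 84.4%), and both shares are near the background. Of 39 tested MYC target genes, 26 were higher and 9 lower in H446 than in BEAS-2B (89.7% called, beside 82.6% of all genes), with a median of 0.34 against -0.09 over all genes. ODC1, which makes polyamines, had 96.1 against 36.7 FPKM, and SRM, the spermidine synthase, 79.8 against 38.4 FPKM. The summed level of the 40 listed targets ran the other way, without overlap, at 6260 to 6478 FPKM in H446 and 7293 to 7671 in BEAS-2B controls. In A549 controls it was 7011 to 7181 FPKM. Between H446 and A549 the list was split, with 13 higher, 15 lower (71.8%, beside 84.4%) and a median of -0.02. The cell cycle genes E2F2 (14.3 against 2.12 FPKM) and CDC25A (13.4 against 2.28) were higher in H446, and the nucleolar proteins FBL (162 against 500.0 FPKM) and RRP12 (7.45 against 17.4) were lower, each past the threshold (largest adjusted p = 1.74e-09, limma).

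The response to radiation was then compared within each line. MYC fell after 10 Gy in A549 cells and in neither of the others past the threshold. It was at 19.0, 19.1 and 20.7 FPKM in irradiated A549 cells, against 47.1, 47.7 and 44.6 in the controls. The groups did not overlap, and the mean was 2.37 times lower (19.6 ± 0.978 against 46.5 ± 1.65 FPKM, SD, n = 3), a difference of -1.21 on the log2 scale (SE 0.05, adjusted p = 2.67e-09, limma). In H446, MYC was at 78.4, 81.5 and 76.3 FPKM after 10 Gy, which overlapped with the controls (difference -0.07, SE 0.04, adjusted p = 0.187, and 0.02 with the GC trend removed). In BEAS-2B it was at 26.6, 29.5 and 21.0 FPKM after 10 Gy, which again overlapped with the controls (difference 0.06, SE 0.13, adjusted p = 0.845, and -0.04 without BEAS-2B 10 Gy replicate 2). The response of A549 differed from that of H446 by 1.14 (H446 minus A549, SE 0.13, adjusted p = 5.44e-06) and from that of BEAS-2B by -1.27 (A549 minus BEAS-2B, SE 0.13, adjusted p = 1.79e-06, limma). The responses of H446 and BEAS-2B did not differ past the threshold (-0.13, SE 0.13, adjusted p = 0.493).

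After 10 Gy the order of the lines in MYC was therefore changed at its lower end. Irradiated A549 cells lay below irradiated BEAS-2B cells (difference -0.36, adjusted p = 0.00441, limma), with a gap of 20.7 to 21.0 FPKM between the nearest libraries. The highest irradiated BEAS-2B value, 29.5 FPKM, is that of replicate 2, the library that stood apart, and this difference was not fitted without it. The rank of MYC among all genes went from 1669 to 1776 in A549 controls to 3851 to 4150 after 10 Gy. The share of MYC in its family was still 97.7 to 97.9% there.

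**Figure D3:**
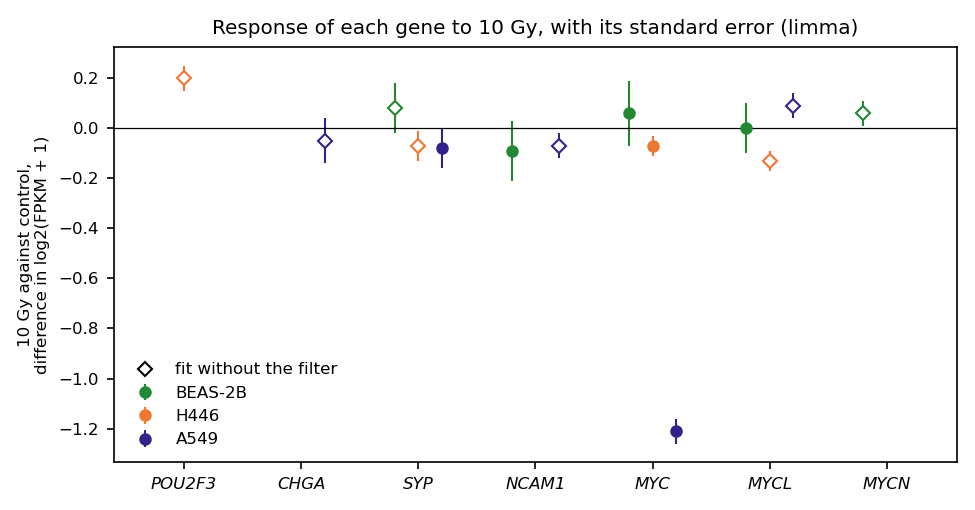
Difference between 10 Gy and control in log2(FPKM + 1) with its standard error from limma, by gene and line, where open diamonds mark genes tested without the filter and genes with no point were not tested. MYC in A549 stands at -1.21, and all other points lie between -0.13 and 0.20.

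Of the members that passed the filter, 1 of 2 was called in A549 (MYC, lower), where 51.7% of all genes were called and 26.4% were called lower. The count was 0 of 1 in H446, beside 38.4%, and 0 of 3 in BEAS-2B, beside 0.0% (0 of 11734 genes by limma, with 1446 at an unadjusted p under 0.05, and 439 called with the replicate number as a block). For the differences in response, 0 of 4 members were called between H446 and BEAS-2B, beside 22.7% of all genes, 1 of 4 between H446 and A549, beside 34.6%, and 1 of 4 between A549 and BEAS-2B, beside 30.6%. The comparisons share libraries, so these counts are not independent.

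No neuroendocrine marker gene passed the threshold after 10 Gy in a line where it was tested, while CHGA in BEAS-2B and H446 and NCAM1 in H446, listed at 0 in most or all libraries, were not tested. In A549, where SYP and CHGA were highest, SYP went from 2.13, 2.01 and 1.83 to 1.83, 1.98 and 1.65 FPKM (difference -0.08, SE 0.08, adjusted p = 0.407, limma). CHGA went from 1.19, 0.88 and 0.97 to 1.17, 0.81 and 0.85 FPKM (-0.05, SE 0.09, adjusted p = 0.702 without the filter). Both genes overlapped between the groups. NCAM1 in BEAS-2B was at 4.22, 5.02 and 3.68 FPKM after 10 Gy, which overlapped with the controls (-0.09, SE 0.12, adjusted p = 0.766, limma). In irradiated H446 cells NCAM1 was listed at 0 in all libraries, CHGA at 0.03, 0.00 and 0.00 FPKM, and SYP at 0.11, 0.17 and 0.11 FPKM (adjusted p = 0.464 without the filter, limma).

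POU2F3 and MYCL separated by treatment in H446, both at levels under 0.5 FPKM. POU2F3 was at 0.46, 0.48 and 0.39 FPKM after 10 Gy against 0.23, 0.20 and 0.33 in controls, a mean 1.75 times higher without overlap. In the fit without the filter the difference was 0.20 (SE 0.05, adjusted p = 0.0251, limma), the exact permutation p was 0.10, and the call was lost with the replicate block (adjusted p = 0.0804) and when any of 4 of the 6 H446 libraries was left out (adjusted p between 0.0645 and 0.0847). In the other lines POU2F3 was at or below 0.05 FPKM in all libraries, so a response there could not be read. MYCL was at 0.16, 0.23 and 0.20 FPKM after 10 Gy against 0.35, 0.28 and 0.29, a mean 1.56 times lower without overlap. Its difference of -0.13 (SE 0.04, adjusted p = 0.0455 without the filter, limma) missed the threshold in all 13 alternatives, among them -0.03 (adjusted p = 0.665) with the GC trend removed. In the other lines MYCL overlapped between treatments, at 0.36 to 0.45 FPKM in irradiated A549 and 1.38 to 1.69 FPKM in irradiated BEAS-2B cells. MYCN after 10 Gy was at 0.07 to 0.21 FPKM in BEAS-2B and at or below 0.08 FPKM in the cancer lines.

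The related lists were counted in the same way. In H446, 1 of 11 tested secretory and synaptic genes rose and 4 fell (45.5%, near the 38.4% of all genes), among the latter UCHL1 (22.9 to 15.6 FPKM, -0.53, adjusted p = 9.95e-06), VAMP2 (21.1 to 14.9 FPKM) and ENO2 (20.7 to 15.2 FPKM, limma). In A549, 8 of 17 rose and 4 fell (70.6%, beside 51.7% of all genes), with a median of 0.22 against -0.00 over all genes. That median was 0.12 with quantile normalization and 0.07 over the 20 genes tested with all 18 libraries in 1 fit. ENO2 rose from 23.1 to 38.2 FPKM (0.71, adjusted p = 6.09e-07) and SNAP25 from 28.3 to 38.3 FPKM (0.42, adjusted p = 0.000118, limma). Of the Notch genes, among which 4 of 15 rose and 6 fell in A549 (66.7%), JAG1 and HES1 fell (29.2 to 17.8 and 6.49 to 3.91 FPKM) and NOTCH1 rose (1.78 to 3.34 FPKM), each past the threshold (largest adjusted p = 8.06e-05, limma). NOTCH1 in H446 was at 3.69 and 3.24 FPKM (adjusted p = 0.144), and in BEAS-2B at 3.78 and 6.37 FPKM (adjusted p = 0.241). Its response in H446 differed from that in A549 (-0.79, SE 0.17, adjusted p = 0.00148) and from that in BEAS-2B (-0.75, SE 0.17, adjusted p = 0.00521, limma), and A549 and BEAS-2B differed by 0.04 (adjusted p = 0.884). REST rose in H446 (8.55 to 9.53 FPKM, 0.14, adjusted p = 0.0413, limma), where 3 of 13 genes of the list rose and 4 fell (53.8%), and 2 rose and 1 fell with the GC trend removed. With the replicate block 1 rose and 5 fell, and with all 18 libraries in 1 fit 1 of 15 rose and 4 fell. The rise of REST was close to the threshold, and its own call under these alternatives is not given here. YAP1 did not pass in any line (smallest adjusted p = 0.303, limma).

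MYC target genes were counted beside MYC itself. In A549, 29 of 38 tested targets fell and 2 rose, with a median of -0.27 against -0.00 over all genes, where 81.6% of targets and 51.7% of all genes passed and 26.4% of all genes fell. EIF4EBP1, an inhibitor of translation initiation, fell from 98.7 to 48.4 FPKM (-1.02, adjusted p = 7.03e-08), ODC1 from 88.8 to 49.7 FPKM (-0.82, adjusted p = 9.49e-09) and NOLC1, a nucleolar protein, from 84.4 to 57.2 FPKM (-0.55, adjusted p = 1.68e-07, limma). In H446, where MYC did not pass, 19 of 38 targets fell and 1 rose (52.6%, beside 38.4% of all genes), with a median of -0.13 against -0.03 over all genes. CDK4 fell from 65.4 to 42.4 FPKM (-0.61, adjusted p = 1.04e-06) and SRM from 79.8 to 55.8 FPKM (-0.51, adjusted p = 4.51e-06, limma). With the GC trend removed the H446 counts were 14 lower and 1 higher, with a median of -0.07, and the part of GC content in this list was not tested further. In BEAS-2B none of 39 targets passed (median 0.01), beside 0.0% of all genes. None passed without BEAS-2B 10 Gy replicate 2 (median -0.01, with 233 of all genes called), and at most 2 did in either direction under the other alternatives run. Between lines, 20 of 39 targets had a lower and 2 a higher response in A549 than in BEAS-2B (56.4%, beside 30.6% of all genes), 14 a lower and none a higher response in H446 than in BEAS-2B (35.9%, beside 22.7%), and 16 a higher and 2 a lower response in H446 than in A549 (46.2%, beside 34.6%). Per library, the targets differed from their control mean by a median of -0.29, -0.24 and -0.29 in irradiated A549, -0.14, -0.11 and -0.14 in irradiated H446 and -0.04, 0.04 and -0.01 in irradiated BEAS-2B cells.

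**Figure D4:**
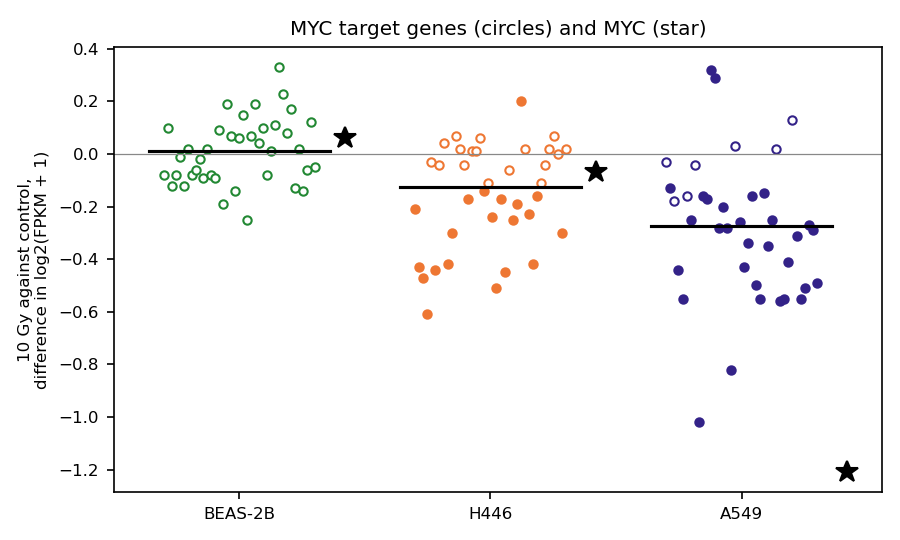
Difference between 10 Gy and control in log2(FPKM + 1) of the tested MYC target genes (circles, filled where the adjusted p was under 0.05), with their median as a line and MYC as a star, by line. The median stands at 0.01 for BEAS-2B, at -0.13 for H446 and at -0.27 for A549, where MYC stands at -1.21.

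The p53 target genes, which mark the damage response, were read beside these values. In A549, 26 of 29 rose and 2 fell (96.6%, beside 51.7% of all genes, median 0.89), with CDKN1A, the cell cycle inhibitor p21, rising from 103 to 303 FPKM. In H446, 5 of 27 rose and 3 fell (29.6%, beside 38.4% of all genes, median 0.00), and CDKN1A had 73.4 FPKM in controls and 67.3 after 10 Gy. In BEAS-2B none of 27 passed (median 0.58), where 0 of all 11734 genes tested passed. With all libraries kept, 19 of 27 rose with the replicate block (439 of all genes called) and 17 of 29 in 1 fit of 18 libraries (842 called). Without BEAS-2B 10 Gy replicate 2, 24 of 27 rose (median 0.87, with 233 of all genes called). That library was singled out by these same genes, so the last count is not independent of leaving it out and is only a description. In A549 MYC fell while the p53 list rose. In BEAS-2B neither MYC nor any p53 target passed in the fit of that line alone. The part of either in the other was not tested. MAX did not pass in any line after 10 Gy (smallest adjusted p = 0.441, limma).

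The genes whose levels over the 18 libraries were most like those of a member were searched among 13092 genes by the Pearson correlation of log2(FPKM + 1). The points are libraries of 3 lines, so the values mainly restate which line was high. For MYC they included KRT80 (r = 0.99, mean 120.0 FPKM in H446 controls and 49.0 in A549 controls against 19.5 after 10 Gy) and ERP29 (r = 0.978). For CHGA they were RADIL, ZNF385D and CXorf57 (r = 0.996, 0.994 and 0.993), for SYP GPCPD1, MORC4 and ST3GAL5 (0.991, 0.988 and 0.987), for NCAM1 YPEL1, WASF3 and TMEM178B (0.997 each) and for MYCL APLN, MGAT1 and PIGZ (0.994, 0.992 and 0.992).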

How the data were processed

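RNA-seq values of 18 libraries from 3 lung cell lines were analysed, with line, treatment and replicate number taken from the labels. Per the labels and the paper, poly(A) RNA was sequenced as single-end reads of 50 bases. The submitters' processing notes name HISAT2 2.0.4, Bowtie2 2.2.5, RSEM 1.2.12 and hg38. The deposited values are taken as FPKM, normalized by the authors for length and library. This unit was inferred from the values, and their depth is unknown.

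Values were tested as log2(FPKM + 1) with limma 3.58.1 (lmFit, eBayes with a trend) in R 4.3.3, keeping genes that reached an FPKM of 1 in 3 or more of the compared libraries. Each line was fitted alone for 10 Gy, the 9 controls together for the lines, and all 18 libraries for differences in response. Scripts were tested on simulated data. Members and lists were chosen with earlier results of these data known. List genes named are up to 4 per list and comparison, those of largest difference past the threshold with no overlap and a mean FPKM of at least 5, plus REST, NOTCH1, NOTCH2, HES1, YAP1 and MAX. Some genes that the rules name are not reported here. No 2 libraries shared more than 3.22% of their values above 0. GC content is that of the longest GENCODE 29 transcript (17850 genes). Gene positions and upstream sequences are from RefSeq (GRCh38.p14), and the deposited values carry no coordinates. Tables and figures used Python 3.11.15, numpy 2.4.6, pandas 2.3.3 and matplotlib 3.10.9.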

Additional observations from a re-analysis of the deposited data

Results flagged for a closer look

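A difference between lines in the response to 10 Gy passed the threshold for MYC (limma, all 18 libraries), and for POU2F3 in the fit without the filter, where it is given as a description. For MYC the response of H446 exceeded that of A549 by 1.14 on the log2 scale (adjusted p = 5.44e-06), and that of A549 lay below that of BEAS-2B by -1.27 (adjusted p = 1.79e-06). MYC was lower in 3 of 3 irradiated A549 libraries than in any A549 control. For POU2F3, which could be fitted only because every H446 library was above 0, the response of H446 exceeded that of BEAS-2B by 0.18 and that of A549 by 0.22 on the log2 scale. POU2F3 was higher in 3 of 3 irradiated H446 libraries than in any H446 control, at 0.39 to 0.48 FPKM. In the other lines it was at or below 0.05 FPKM in all libraries, so that these differences largely restate the change in H446. The call of the difference from BEAS-2B was lost in 7 of 23 alternatives, the replicate block among them, and that from A549 in 1 of 23.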

How the results depend on the processing

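The calls of MYC between lines, of its fall in A549 and of its 2 differences in response kept their direction in all alternatives, except that A549 lay below BEAS-2B in the irradiated libraries (-0.36). Requiring a log2 difference of 1 or more in size left 3095, 3605 and 3479 genes and 2, 1 and 2 members for H446 against BEAS-2B, H446 against A549 and A549 against BEAS-2B. MYC was among those lost in H446 against A549 (0.82) and in A549 against BEAS-2B (0.91). Requiring an FPKM of 1 in all compared libraries left 1 member (MYC) in each. Without the filter there were 2 members in H446 after 10 Gy, 5 in H446 against A549, 1 in the response of H446 minus BEAS-2B and 2 in that of H446 minus A549, where a pseudocount of 0.1 also gave 2. The 5 include CHGA and POU2F3, and the response counts without the filter include POU2F3. Each could be fitted only through the line where it was high, so these counts support no statement about the members. Removal of the GC trend gave 1382 genes in the response of H446 minus BEAS-2B.

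In BEAS-2B after 10 Gy, 1 gene was called without the filter, 842 with all 18 libraries in 1 fit and 984 in that fit without BEAS-2B 10 Gy replicate 2, an alternative chosen after the data were seen, as were those for members without the filter. Replicate numbers were not taken as pairs, since the correlation of deviations was between -0.068 and 0.288 in BEAS-2B, 0.063 and 0.177 in H446 and -0.237 and -0.138 in A549. With the replicate block 439 genes were called in BEAS-2B, and of the members only POU2F3 and MYCL in H446 and POU2F3 in H446 minus BEAS-2B lost their call.

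With 1 library left out, calls ranged from 0 to 233 genes in BEAS-2B (233 without 10 Gy replicate 2) and from 1811 (without BEAS-2B control replicate 1) to 4532 (without BEAS-2B 10 Gy replicate 3) for H446 minus BEAS-2B. Members ranged from 2 to 4 for H446 and A549 against BEAS-2B, with 2 whenever a BEAS-2B control was left out, since NCAM1 and MYCL then fell under the filter.

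Values that changed sign were small and, except MYC above and MYCL between H446 and A549 under quantile normalization (0.16), not called. For 10 Gy in BEAS-2B, SYP and MYCN were -0.03 and MYC -0.01 with the GC trend removed, MYC was -0.04 in 1 fit without 10 Gy replicate 2, and MYCL was 0.00 at equal totals. In H446 after 10 Gy, SYP was 0.07 and MYC 0.02 with the GC trend removed, and MYCL between H446 and A549 was 0.01 at equal totals. In H446 minus BEAS-2B, SYP was 0.09, MYC 0.02 and MYCL 0.05 with the GC trend removed. With a pseudocount of 0.1, SYP was -0.16 in H446 minus A549 and NCAM1 -0.09 in A549 minus BEAS-2B, where quantile normalization gave -0.00. With 1 library left out, values in BEAS-2B lay between -0.02 and 0.18 (SYP), -0.19 and 0.01 (NCAM1), -0.04 and 0.20 (MYC) and -0.06 and 0.04 (MYCL). CHGA in A549 lay between -0.13 and 0.01, MYCL in H446 against A549 between -0.04 and 0.03, and NCAM1 in H446 minus BEAS-2B between -0.02 and 0.18. In H446 minus A549, CHGA lay between -0.02 and 0.13 and SYP between -0.05 and 0.07. In A549 minus BEAS-2B, CHGA lay between -0.13 and 0.01, NCAM1 between -0.08 and 0.12 and MYCN between -0.06 and 0.03. The cause of these changes was not tested. Read depth is unknown, so levels near 0 cannot be told from absence.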

Other observations

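CCN1 and CCN2, secreted matrix proteins of the non-neuroendocrine list, fell after 10 Gy in A549 and rose in H446. In A549, CCN1 fell from 188 to 42.1 FPKM (-2.14, SE 0.05, adjusted p = 3.41e-11) and CCN2 from 42 to 10.5 FPKM (-1.90, SE 0.04, adjusted p = 3.41e-11, limma). In H446, CCN1 rose from 118 to 240.0 FPKM (1.02, SE 0.04, adjusted p = 4.54e-08) and CCN2 from 11.2 to 16.3 FPKM (0.51, SE 0.05, adjusted p = 6.03e-05, limma). Groups did not overlap in any of the 4 comparisons. TEAD4, a transcription factor of the list, fell in A549 from 18.2 to 11.6 FPKM (-0.61, SE 0.05, adjusted p = 1.76e-06, limma) and had 14.3 and 11.6 FPKM in H446. Of the 28 genes of this list, 10 rose and 5 fell in H446 (53.6%, beside 38.4% of all genes), and of 27 tested in A549, 9 rose and 11 fell (74.1%, beside 51.7%).

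Among the partners of MYC, AURKA, a mitotic kinase that stabilizes MYCN protein, rose in H446 from 58.0 to 111 FPKM (0.93, SE 0.04, adjusted p = 2.53e-07) and MNT, a MAX partner that opposes MYC, fell from 12.8 to 8.11 FPKM (-0.60, SE 0.07, adjusted p = 0.000129, limma). Of 19 partners tested in H446, 3 rose and 3 fell (31.6%, below the 38.4% of all genes). Of 18 tested in A549, 5 rose and 4 fell, a share near the 51.7% called among all genes. In A549, ZBTB17 fell from 11.7 to 7.43 FPKM (-0.59, adjusted p = 3.18e-06), while FBXW7, the ubiquitin ligase subunit that marks MYC for degradation, rose from 5.72 to 8.98 FPKM (0.57, adjusted p = 1.14e-05) and MXD4 from 6.96 to 10.5 FPKM (0.54, adjusted p = 3.26e-05, limma). Of the 10 genes listed as lowered by MYC, 4 of 8 tested rose and 1 fell in A549 (62.5%, beside 51.7% of all genes) and 4 of 9 rose and 1 fell in H446 (55.6%, beside 38.4%). CDKN1A and GADD45A of this list are also p53 targets. GADD45A went from 110 to 75.9 FPKM in A549 and from 18.9 to 25.4 FPKM in H446.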
